A study of Homo sapiens with 6 samples.

Results

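RGS proteins are the regulators of G protein signalling, and 9 of their genes, RGS2, RGS3, RGS4, RGS10, RGS12, RGS14, RGS16, RGS19 and RGS20, were followed in DU145, a line of human prostate cancer cells that came from a metastasis in the brain. The members were all probe sets for which the platform annotation gave exactly 1 gene symbol, that symbol being 1 of the 9. This gave 29 probe sets of 41091, for 9 genes of 19775 in all. The family was chosen by RGS2, which was among the genes with the highest ratio of HGF over vehicle at 24 hours, so that ratio of RGS2 is given as a description and without a test. The cells were seeded in RPMI with serum and then moved to RPMI with 5% dextran charcoal treated serum, in which steroid hormones are depleted. After this change of medium they received either 25 ng/ml HGF, which binds the receptor tyrosine kinase c-MET, or vehicle, and RNA was taken after 2, 8 and 24 hours. RNA of each of these 6 conditions went onto 1 array of the type Affymetrix U133plus2.0. There was 1 cell line and no replicate, so a ratio of HGF over vehicle at a given time has no replicate error and no p-value.

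A heterotrimeric G protein is switched on when a receptor makes its alpha subunit exchange GDP for GTP, and it is switched off when the alpha subunit hydrolyses that GTP. RGS proteins bind the active alpha subunit through a shared RGS domain and speed up this hydrolysis, so they shorten signals of receptors such as those for prostaglandins, lysophosphatidic acid or nucleotides. The 9 genes fall into 3 subfamilies. RGS2, RGS3, RGS4 and RGS16 belong to the R4 group, RGS19 and RGS20 to the RZ group and RGS10, RGS12 and RGS14 to the R12 group. The mRNA of several RGS genes is short-lived and is itself controlled by hormones and growth factors.

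The deposited intensities were scaled to a mean of 150 per array, and values under 30 were raised to 30, here called the floor. A value under the floor is given as measured but enters a ratio as 30, and where only 1 side exceeds the floor the ratio is a bound. For a gene, the log2 ratios of its probe sets were averaged, and a probe set at the floor in both arrays counts as 0. A gene passed the selection rule when at least 1 probe set differed by at least 2-fold and the mean log2 ratio was 0.50 or more in that direction. The only measure of error was the spread between vehicle arrays of different times, which includes time in culture. For each gene it is given as the SD of the vehicle over vehicle log2 ratios among the 500 genes nearest in level. The 3 HGF and 3 vehicle arrays had 33.1% to 36.7% of their probe sets above the floor. The ratio of 3' to 5' ACTB probes, which reads RNA integrity and labelling, lay between 1.13 and 1.71 and was highest in both arrays of 24 hours. The poly-A spike DapX, added before labelling, read 701 in the vehicle array of 8 hours, its lowest, and 1152 or more in the others. All 6 epithelial markers exceeded the floor in 1 or more arrays, the keratins KRT8 and KRT18 in every array and CLDN4 in 1 array only, at 30.7. EPCAM passed the selection rule as lower at 8 hours, CDH1 as lower at 24 hours and KRT19 as higher at 8 hours. With the average of all 3 vehicle arrays as reference, the call of EPCAM was lost and those of CDH1 and KRT19 were kept. Of markers with a probe set, 0 of 3 for leukocytes and 0 of 4 for endothelium exceeded the floor in any array, and 1 of 4 for fibroblasts did, COL1A1, at up to 97.3. The part of these markers in the RGS ratios was not tested.

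RGS2, which acts preferentially on the alpha subunit of Gq, had a higher level with HGF than with vehicle at each of the 3 times. Its single probe set, 202388_at, had a scaled intensity of 549.9 with HGF and 298.9 with vehicle at 2 hours. At 8 hours it read 459.8 with HGF and 286.8 with vehicle, and at 24 hours 1289 with HGF and 340.8 with vehicle. All 3 HGF arrays were thus above all 3 vehicle arrays, and the vehicle arrays lay close together while the HGF array of 24 hours stood well above the other two. The ratios were 1.84-fold at 2 hours, 1.60-fold at 8 hours and 3.78-fold at 24 hours (log2 0.88, 0.68 and 1.92). An array reads the RNA of the whole culture, so more cells that transcribe RGS2 and more RGS2 mRNA per cell cannot be told apart.

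The differences of RGS2 between vehicle arrays were smaller than those between HGF and vehicle. On the log2 scale vehicle at 8 hours differed from vehicle at 2 hours by -0.06, and vehicle at 24 hours differed by 0.19 from 2 hours and by 0.25 from 8 hours. The SD of vehicle ratios for genes of similar level was 0.325. Ordered by level, the HGF arrays of 24, 2 and 8 hours came first, followed by the vehicle arrays of 24, 2 and 8 hours. Among HGF arrays, the step of 1.23 between 24 and 2 hours was larger than that SD, and the step of 0.26 between 2 and 8 hours was not, nor were the steps among vehicle arrays. Within the HGF arrays RGS2 passed the selection rule as higher at 24 hours against both 2 hours (2.34-fold) and 8 hours (2.80-fold). Among all genes, 0.819% passed as higher in the first of these comparisons and 2.32% in the second, and both hold the HGF array of 24 hours on which RGS2 was selected.

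The ratios at 2 and 8 hours did not take part in choosing RGS2. At 2 hours its ratio ranked 65th from the highest of 19775 genes, although it was under the 2-fold that the rule asks for, and 0.42% of all genes passed as higher and 0.0556% as lower. At 8 hours it ranked 956th and was again under 2-fold, while 2.69% of all genes passed as higher and 7.99% as lower. In limma, fitted to the 4 arrays of 2 and 8 hours over 10002 genes with the time as a block, RGS2 was 0.78 higher with HGF on the log2 scale (SE 0.25). Its unadjusted p was 0.0158, where 4.84% of all genes had one under 0.05, and its adjusted p (limma, Benjamini-Hochberg) was 0.898, so the shared effect of these 2 times did not hold after correction. At 24 hours, the time used for the choice, RGS2 ranked 10th of 19775, and 1.04% of all genes passed as higher and 0.556% as lower.

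**Figure D1:**
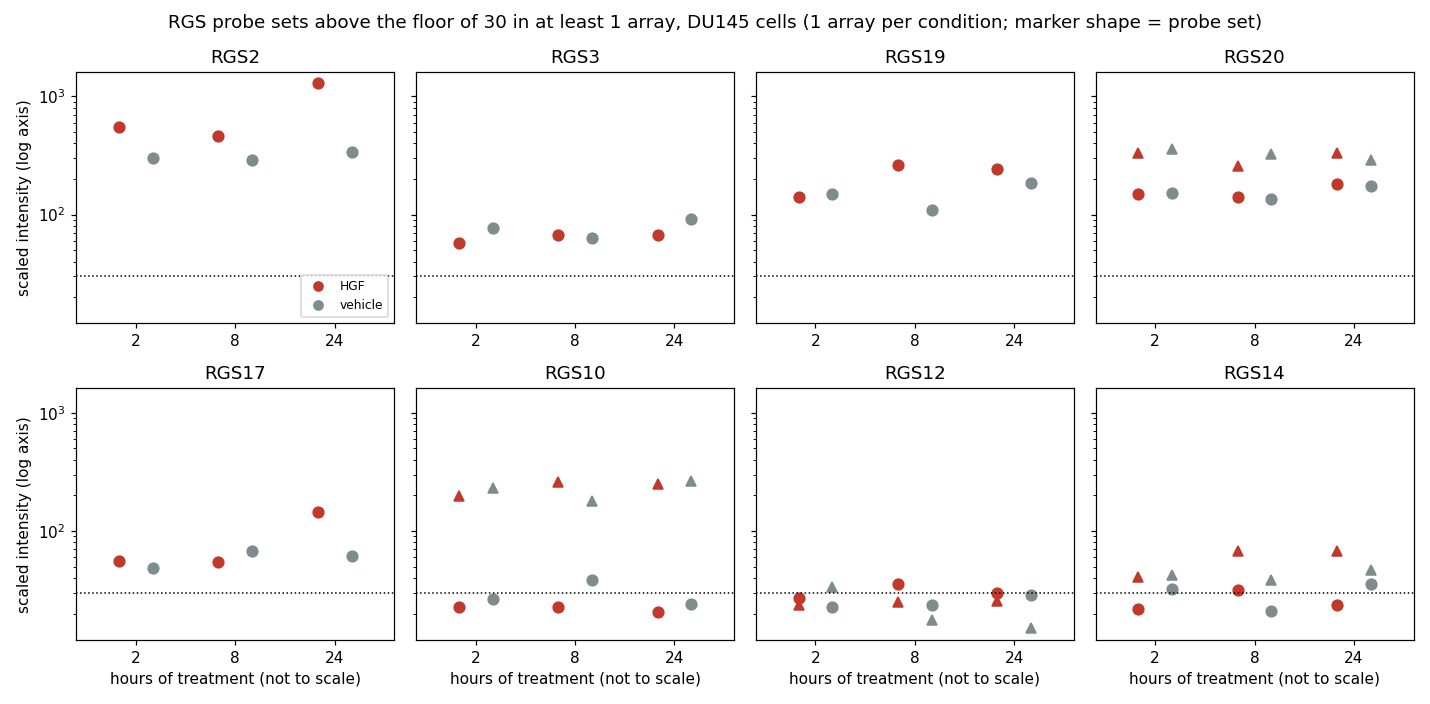
Scaled intensity on a log axis of every RGS probe set above the floor of 30 (dotted line) in at least 1 array, at 2, 8 and 24 hours, with HGF in red left of vehicle in grey, 1 array per point and marker shapes for different probe sets of a gene. RGS2 lay between 459.8 and 1289 with HGF and between 286.8 and 340.8 with vehicle, whereas HGF and vehicle arrays overlapped for the other probe sets, except 204316_at of RGS10, which was under the floor with HGF and exceeded it in 1 vehicle array. RGS17 is shown beside the 7 chosen genes because it passed the rule at 24 hours.

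RGS2 lies on chromosome 1, where the annotation places RGS18, RGS21, RGS1 and RGS13 directly before it and UCHL5 directly after it. Of these neighbouring RGS genes, RGS1, RGS13 and RGS18 had probe sets, which reached at most 7.01 in any array, so none of them was above the floor in the arrays where RGS2 was highest. The 250 bases before the start sites of RGS2, RGS19 and RGS17 are printed because these were the 3 RGS genes that passed the selection rule at a time point. The sequences are those of RefSeq on GRCh38.p14, 5' to 3' on the strand of the gene, at chr1:192808789-192809038 (plus strand) for RGS2, chr20:64079965-64080214 (minus strand) for the first of 2 start sites of RGS19 and chr6:153131283-153131532 (minus strand) for RGS17. Capitals mark a match on either strand to 1 of the motifs described after them.
RGS2: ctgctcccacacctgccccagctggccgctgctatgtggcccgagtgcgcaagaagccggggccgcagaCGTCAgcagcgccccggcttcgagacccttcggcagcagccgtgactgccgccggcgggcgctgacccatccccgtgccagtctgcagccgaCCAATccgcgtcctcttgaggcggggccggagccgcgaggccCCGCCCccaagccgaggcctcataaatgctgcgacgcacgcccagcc
RGS19: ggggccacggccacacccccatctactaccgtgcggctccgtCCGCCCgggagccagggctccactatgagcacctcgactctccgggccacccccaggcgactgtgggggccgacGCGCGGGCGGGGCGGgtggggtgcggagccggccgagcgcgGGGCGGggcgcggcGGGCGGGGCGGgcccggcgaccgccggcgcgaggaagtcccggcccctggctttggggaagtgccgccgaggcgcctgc
RGS17: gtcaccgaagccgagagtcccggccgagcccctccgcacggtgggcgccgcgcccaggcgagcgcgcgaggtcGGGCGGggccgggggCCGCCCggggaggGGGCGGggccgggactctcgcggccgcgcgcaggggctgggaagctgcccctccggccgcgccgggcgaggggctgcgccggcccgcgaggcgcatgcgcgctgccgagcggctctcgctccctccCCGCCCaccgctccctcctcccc

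The motifs searched on both strands were the cAMP response element TGACGTCA and its shorter core TGACG, the AP-1 site TGANTCA, the EGR site GCGNGGGCG, the ETS site CCGGAAG, the CCAAT box, the TATA box with the letters TATAAA, and the GC box with the letters GGGCGG. The core lies within the full element, and a GC box can overlap an EGR site. The RGS2 window held a TGACG core at -181, a CCAAT box at -89 and a GC box at -47, counted from the base before the start site as -1 to the upstream end of the match. Over 35116 promoter windows of this length, 21.2% held TGACG, 32.0% held CCAAT and 42.6% held GGGCGG, so these matches are common. The printed RGS19 window held an EGR site at -134 and 6 GC boxes, and the window of its other start site held an EGR site at -21 and an ETS site at -97, with 8.41% of all windows holding the EGR letters and 8.52% the ETS letters. The RGS17 window held 4 GC boxes. The full cAMP response element (1.65% of all windows), the AP-1 letters (6.57%) and TATAAA (10.7%) were in none of these windows. A match is a description of the letters and says nothing about binding.

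The other R4 genes did not pass the rule at any time. RGS3, which acts on Gi and Gq, was read above the floor by 1 of its 3 probe sets. This probe set, 203823_at, had 57.1 with HGF and 77.6 with vehicle at 2 hours, 66.9 with HGF and 62.9 with vehicle at 8 hours, and 67.7 with HGF and 91.5 with vehicle at 24 hours. The groups overlapped, with HGF below vehicle at 2 and 24 hours. The ratio of this probe set was 0.737-fold, 1.06-fold and 0.739-fold in the order of time, and the log2 ratio of the gene was -0.15, 0.03 and -0.15. RGS4, best known from neurons, and RGS16 had 3 probe sets each, all of which stayed under the floor. The highest value was 7.37 for RGS4 and 19.1 for RGS16, so neither has a ratio here, and with values at this level a change of their mRNA could not be read.

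In the RZ group, RGS19, also called GAIP and active on Gi alpha subunits, passed the rule at 8 hours. Its single probe set 204336_s_at had 141.8 with HGF and 148.4 with vehicle at 2 hours, 263.2 with HGF and 109.8 with vehicle at 8 hours, and 241.5 with HGF and 184.0 with vehicle at 24 hours. The HGF arrays of 8 and 24 hours were the highest of the 6, but the HGF array of 2 hours lay among the vehicle arrays. The ratios were 0.955-fold, 2.40-fold and 1.31-fold (log2 -0.07, 1.26 and 0.39). RGS19 ranked 101st of 19775 genes at 8 hours, where 2.69% of all genes passed as higher. The vehicle array of 8 hours gave the lowest of its 6 values, and vehicle at 24 hours was 0.74 above it on the log2 scale, against an SD of 0.334 for vehicle ratios of genes of similar level. Against the average of all 3 vehicle arrays the log2 ratio at 8 hours was 0.87, and against the average of vehicle at 2 and 24 hours, a reference chosen after seeing the data, it was 0.67, so the call at 8 hours was lost with both. That vehicle array also had the lowest poly-A spikes, whose part in the ratio was not tested. The suffix _s_at marks a probe set that can read more than 1 transcript.

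RGS20, the second RZ gene of the 9, was above the floor in all arrays with both of its probe sets. 210138_at had 330.1 with HGF and 358.2 with vehicle at 2 hours, 257.3 with HGF and 324.6 with vehicle at 8 hours, and 328.9 with HGF and 288.5 with vehicle at 24 hours. 1569303_s_at lay between 140.6 and 182.5 with HGF and between 134.4 and 175.5 with vehicle. The 2 groups overlapped for both probe sets, and the log2 ratios of the gene were -0.07, -0.14 and 0.12, all within the SD of 0.346 between vehicle arrays.

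Of 11 other RGS genes with a probe set, 10 stayed under the floor in all arrays, with a highest value of 26.5. The only one above it was RGS17, the third RZ gene, which is not among the 9 genes and was read by 220334_at. It had 55.7 with HGF and 48.5 with vehicle at 2 hours, 54.8 with HGF and 68.0 with vehicle at 8 hours, and 145.3 with HGF and 61.6 with vehicle at 24 hours. The HGF array of 24 hours was the highest, and the other 5 arrays lay between 48.5 and 68.0. RGS17 thus passed the rule as higher at 24 hours (2.36-fold, log2 1.24), where it ranked 52nd of 19775 genes, and its log2 ratio was 0.20 at 2 hours and -0.31 at 8 hours. The SD of vehicle ratios for genes of similar level was 0.305. Of the 3 RZ genes, RGS19 thus passed at 8 hours, RGS17 at 24 hours and RGS20 at none, and whether their ratios differ was not tested.

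The R12 genes did not pass the rule at any time. RGS10, a small protein that acts on Gi, was read mainly by 204319_s_at, with 198.3 with HGF and 232.7 with vehicle at 2 hours, 258.8 with HGF and 179.1 with vehicle at 8 hours, and 250.9 with HGF and 263.4 with vehicle at 24 hours. HGF was above vehicle at 8 hours alone (1.44-fold), where the vehicle array had the lowest of the 6 values as it had for RGS19. The other probe set above the floor, 204316_at, had 22.8, 22.5 and 20.6 with HGF and 26.4, 38.5 and 24.1 with vehicle at the 3 times, with HGF below vehicle throughout but 5 of the 6 values under the floor, so both probe sets went opposite ways at that time. The log2 ratio of the gene was -0.08, 0.06 and -0.02.

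RGS14, a scaffold that joins an RGS domain with Ras-binding domains and a GoLoco motif, was read by 38290_at with 40.6 with HGF and 42.3 with vehicle at 2 hours, 68.1 with HGF and 38.6 with vehicle at 8 hours, and 67.8 with HGF and 47.1 with vehicle at 24 hours. The HGF arrays of 8 and 24 hours were the 2 highest, as for RGS19, and that of 2 hours lay among the vehicle arrays. This probe set was 1.77-fold higher at 8 hours and 1.44-fold at 24 hours, but the gene's log2 ratio over its 3 probe sets was -0.06, 0.30 and 0.09 at the 3 times. A further probe set, 204280_at, was above the floor in 3 arrays, at 31.5 with HGF at 8 hours and at 32.3 and 35.9 with vehicle at 2 and 24 hours, and the remaining probe set was in none. RGS12, the largest protein of the group, had 10 probe sets, of which 8 stayed under the floor. The other two exceeded it once each, 205823_at at 35.5 with HGF at 8 hours and 209637_s_at at 33.5 with vehicle at 2 hours, and the gene's log2 ratios were -0.02, 0.02 and 0.

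Of the 9 genes, 7 exceeded the floor in 1 or more arrays, through 11 of the 29 probe sets. The selection rule took 0 of the 9 in either direction at 2 hours. At 8 hours it took 1 as higher (RGS19) and 0 as lower, and at 24 hours it took 1 as higher (RGS2, used for the choice) and 0 as lower. Of all genes, 0.42% passed as higher and 0.0556% as lower at 2 hours, and 2.69% and 7.99% at 8 hours. At 24 hours 1.04% of all genes passed as higher and 0.556% as lower. Between vehicle arrays 0 of the 9 passed, while 0.48% of all genes passed between 8 and 2 hours, 1.31% between 24 and 2 hours and 3.25% between 24 and 8 hours. Between the HGF arrays of 8 and 2 hours 0 of the 9 passed, and 2.02% of all genes passed as higher. At 2, 8 and 24 hours the median log2 ratio of the 7 genes above the floor was -0.07, 0.06 and 0.09, and that of all genes above it was -0.02, -0.02 and 0.01 in the same order. At 8 hours, 532 genes passed as higher and 1580 as lower over the whole array, a split that became 1087 and 1004 after quantile normalization and 759 and 1267 with centred ratios. RGS2 and RGS19 kept their direction at the time they passed under both, while RGS20 at 8 hours was 0.08 after quantile normalization and RGS12 at 2 hours was 0.03 with centred ratios, each with the opposite sign.

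**Figure D2:**
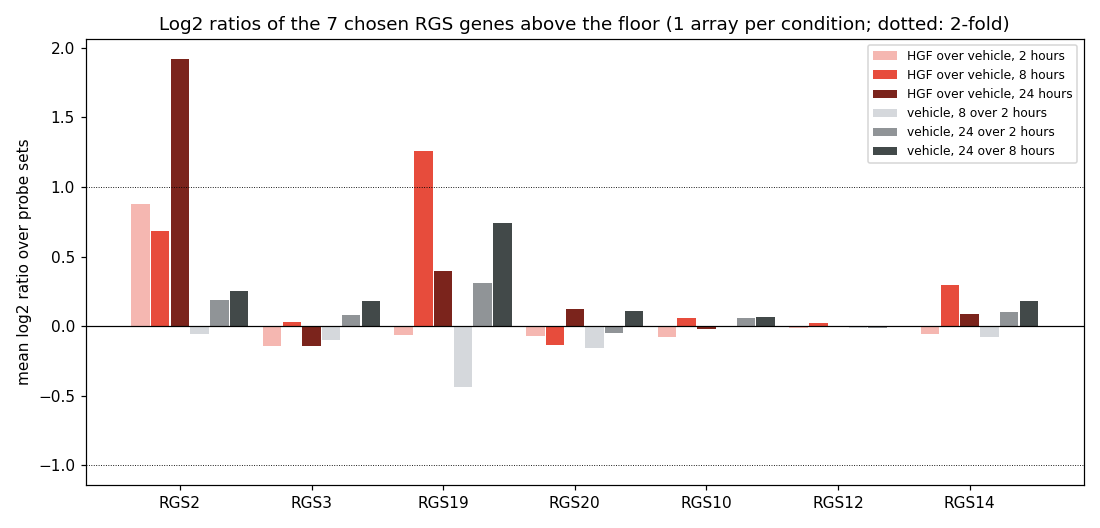
Mean log2 ratio over the probe sets of each of the 7 chosen genes above the floor, with HGF over vehicle at 2, 8 and 24 hours in red and the ratios between vehicle arrays in grey, grouped by subfamily and with 2-fold dotted. RGS2 at 24 hours (1.92) and RGS19 at 8 hours (1.26) were the only bars past 2-fold, and the largest grey bar was that of RGS19 between 24 and 8 hours (0.74).

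Across the 3 times together, RGS2 was the only 1 of the 9 genes for which all 3 HGF arrays were above all 3 vehicle arrays, which held for 5.15% of the 10002 genes that exceeded the floor in 3 or more arrays. Since 1 of those arrays chose RGS2, this is a description. In limma with the time as a block and the 3 pairs standing in for replicates, the log2 difference shared by the 3 times was 0.53 for RGS19 (SE 0.28, adjusted p = 0.912), 0.11 for RGS14 (SE 0.14, adjusted p = 0.915), -0.01 for RGS10 (SE 0.13), -0.03 for RGS20 (SE 0.13) and -0.09 for RGS3 (SE 0.13). The adjusted p of the last 3 lay between 0.923 and 0.989 (limma, Benjamini-Hochberg). For RGS3, RGS10 and RGS14 these differences and their SE average in probe sets at the floor in all arrays. Fitted with the brightest probe set of each gene, the differences were -0.26 (SE 0.24), 0.08 (SE 0.25) and 0.43 (SE 0.26). Their adjusted p in limma was 0.907, 0.972 and 0.891. For RGS2 the shared difference in the main fit was 1.16 (SE 0.28), a value that holds the pair of 24 hours. RGS4, RGS12 and RGS16 were above the floor in too few arrays for the fit. After Benjamini-Hochberg adjustment 0% of the 10002 genes were called at 0.05, and 4.03% had an unadjusted p under it.

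**Figure D3:**
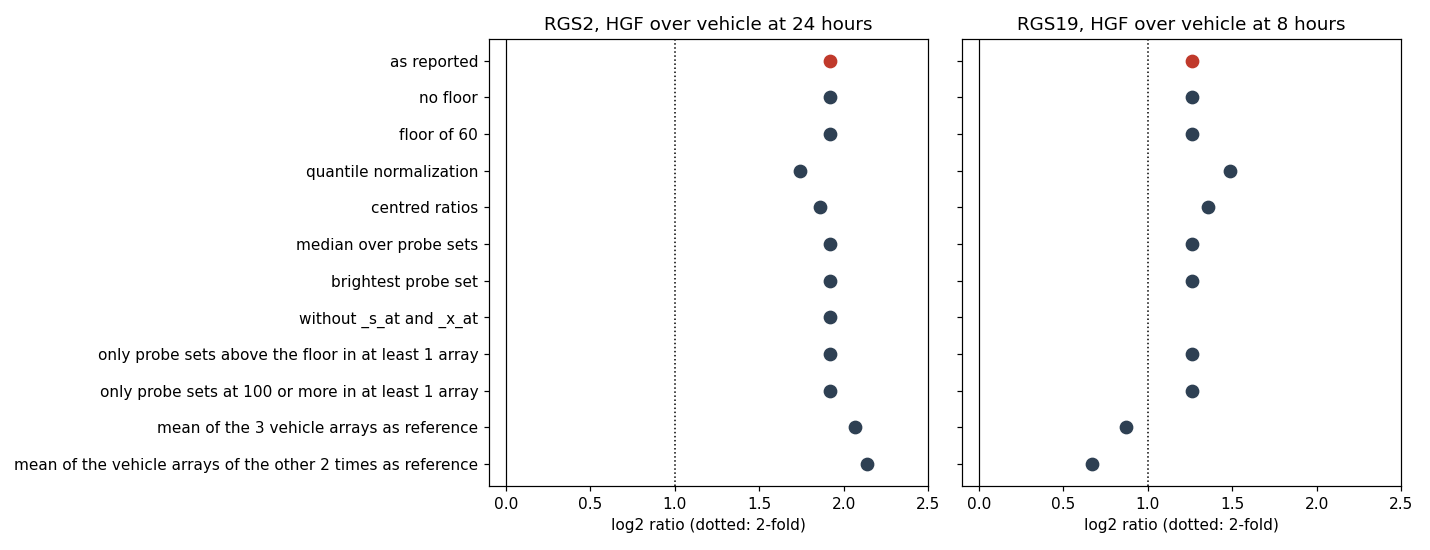
Log2 ratio of HGF over vehicle for RGS2 at 24 hours and RGS19 at 8 hours as reported (red) and under each alternative that gave a value (dark blue), with 2-fold dotted. RGS2 lay between 1.74 and 2.14, whereas RGS19 lay between 0.67 and 1.48 and was under 2-fold with both of the other vehicle references. Both genes have a single probe set well above the floor, so alternatives of floor or probe set choice could not move these points.

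The 5 genes whose level followed that of RGS2 most closely over the 6 arrays were HSD11B1-AS1, CXCL3, CALB2, GLDC and ISG20. The measure was the root mean square difference between the centred log2 profiles of a gene and of RGS2 over 6 arrays, which was 0.783 at the median of 10001 genes compared. It was 0.213 for HSD11B1-AS1, an antisense transcript by its annotation, 0.315 for the chemokine CXCL3, 0.340 for the calcium-binding protein CALB2, 0.360 for the glycine decarboxylase GLDC and 0.376 for the exonuclease ISG20. Their highest HGF array was in each case that of 24 hours, as for RGS2, with log2 ratios of 1.51, at least 1.48, 1.60, 1.34 and 1.91 in the same order. This shared peak is built into the choice, since the genes were picked for a profile like that of RGS2, which is highest there. The 5 genes were less alike at the earlier times. CXCL3 was at least 1.19 higher at 2 hours, CALB2 was -0.14 there (a bound), and ISG20 was 1.39 higher at 8 hours. CXCL3 was at the floor in all 3 vehicle arrays and HSD11B1-AS1 in those of 2 and 8 hours. CALB2 was at the floor in the HGF array of 2 hours and the vehicle array of 8 hours. RGS17 came 15th in this order with 0.430. These likenesses describe the 6 arrays and carry no test.

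Receptors, G protein subunits and effectors around the RGS genes were described from lists of pathway genes and cell type markers, in which 123 genes had a probe set and 77 of these were above the floor. At 2 hours the rule took 5 of them as higher and 0 as lower. It took 8 as higher and 11 as lower at 8 hours, and 3 each way at 24 hours. Over all genes the rule took 0.42% as higher and 0.0556% as lower at 2 hours, and 2.69% and 7.99% at 8 hours. At 24 hours it took 1.04% as higher and 0.556% as lower. The share of list genes that were lower at 8 hours is near that of all genes. The shares higher at 2 and 8 hours, and both ways at 24 hours, were above those of all genes. The lists were chosen with earlier results of these data known, so these counts are descriptions. Against the average of all 3 vehicle arrays 8 list genes passed at 8 hours, 2 as higher and 6 as lower, and of the genes named in the following paragraphs GRK6, ADCY3, LPAR2, P2RY2, NR4A1, DUSP1, GNA13, GNG12, LPAR1 and OXTR were no longer taken at that time, nor PTGER4 and LPAR2 at 24 hours. The 26 receptors listed had 15 members above the floor. Among these PTGER4, the prostaglandin E2 receptor EP4 that couples to Gs, had 518.2 with HGF and 209.0 with vehicle at 2 hours at 204897_at, 304.4 with HGF and 237.4 with vehicle at 8 hours, and 421.3 with HGF and 198.3 with vehicle at 24 hours. At this probe set its HGF arrays did not overlap its vehicle arrays. PTGER4 passed as higher at 2 hours (mean log2 ratio over its probe sets of at least 0.92) and 24 hours (0.54). Its other probe set was at the floor with HGF and vehicle at 8 and 24 hours. It could not show a difference there and enters the gene's mean as 0. At 8 hours the lysophosphatidic acid receptor LPAR2 (1.16) and the nucleotide receptor P2RY2 (1.06) were higher, and the lysophosphatidic acid receptor LPAR1 (-0.80) and the oxytocin receptor OXTR (-1.21) were lower. P2RY2 was read by 1 probe set at no more than 62.7, so its ratio rests on values near the floor. LPAR2 was lower at 24 hours (-0.86, a bound).

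Of 13 alpha subunits listed, 11 were above the floor, and at 2 and 24 hours 0 of them passed. At 8 hours GNAQ, the alpha subunit on which RGS2 acts, was lower by the mean of its probe sets (-1.36), and its probe set 202615_at had 292.7 with HGF and 613.2 with vehicle. GNA13 was also lower (-1.18), and GNA11, the close relative of GNAQ, was higher (0.59). The list's median log2 ratio was -0.16 at 8 hours, against -0.02 for all genes above the floor. GNAQ at 202615_at read 409.7 with HGF and 453.9 with vehicle at 2 hours and 402.2 with HGF and 347.8 with vehicle at 24 hours, so the difference was that of 8 hours, where the vehicle array was its highest. Among 12 beta and gamma subunits GNG12 was lower at 8 hours (-1.09), and GNB5, the partner of the R7 group of RGS proteins, had log2 ratios of 0.04, 0.00 and -0.20.

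Of 13 effectors 7 were above the floor. PLCB4, a phospholipase C switched on by Gq, was lower at 8 hours (-1.88) and at 24 hours (-0.82), with 36.6 with HGF and 132.8 with vehicle at 203895_at at 8 hours, and 48.3 with HGF and 74.3 with vehicle at 24 hours. At 2 hours this probe set had 73.7 with HGF and 94.3 with vehicle, so the HGF array was the lower of the pair at all 3 times. ADCY3, an adenylyl cyclase, was higher at 8 hours (1.04). Among proteins that carry an RGS box outside the RGS subfamilies, 10 of 13 were above the floor, and at 8 hours the receptor kinase GRK6 was higher (0.87) and the sorting nexin SNX13 lower (-0.82). GPSM2, a GoLoco protein and 1 of 5 RGS partners above the floor, was lower at 8 hours (-0.89), as was the arrestin-domain protein ARRDC3 among receptor kinases and arrestins (-1.71). The ratios of GNAQ, GNA13, PLCB4 and SNX13 hold a probe set with its HGF side at the floor and are bounds.

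Genes known to respond to cAMP, the messenger made by effectors of Gs, were higher at 2 hours in 4 of 11 with a probe set. Of these 11, 10 were above the floor, and 0 passed as lower. Among all genes, with those at the floor included, 0.42% passed as higher and 0.0556% as lower. The list was chosen with earlier results of these data known, so its count is a description. The 4 genes were the nuclear receptors NR4A2 (1.83), NR4A3 (1.42) and NR4A1 (0.88) and the transcription factor ATF3 (0.57), which growth factors also induce by other routes. The median of the list was 0.41 at 2 hours, against -0.02 for all genes above the floor. At 8 hours NR4A1 (0.58) and the phosphatase DUSP1 (0.65) were higher and CREB1 (-1.01) was lower, and at 24 hours CREM, a modulator of cAMP response elements, was the only 1 to pass (at least 0.58). The NR4A genes and ATF3 thus had their highest ratio at 2 hours, and RGS2 at 24 hours.

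**Figure D4:**
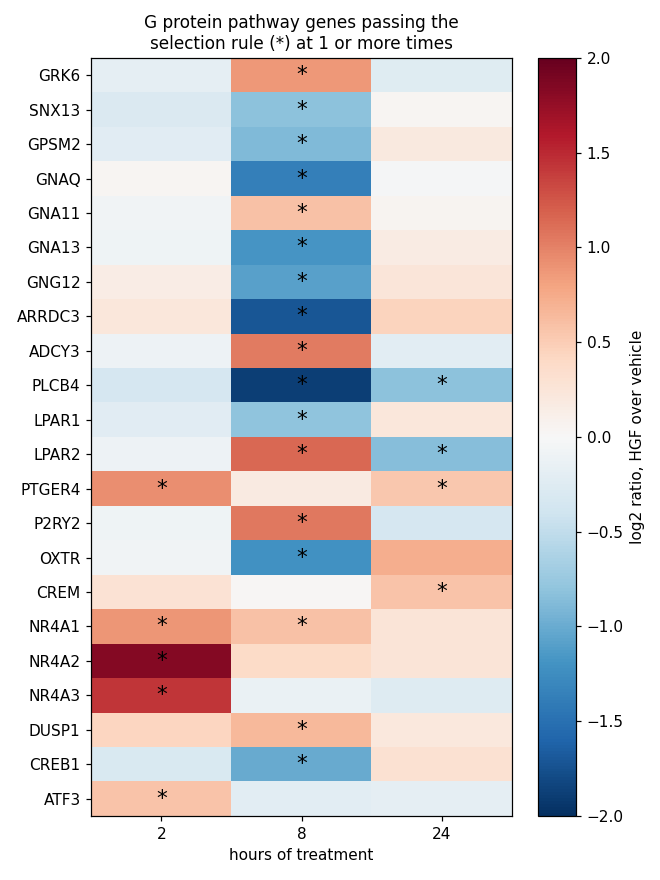
Mean log2 ratio of HGF over vehicle at 2, 8 and 24 hours for the 22 G protein pathway and cAMP-responsive genes that passed the selection rule at 1 or more times, with a star where it passed and the colour scale ending at 2.0 either way. Most stars stand at 8 hours, among them GNAQ (-1.36) and PLCB4 (-1.88), while the stars at 2 hours are PTGER4, NR4A1, NR4A2, NR4A3 and ATF3.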

How the data were processed

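The values used were intensities on a linear scale that the authors deposited for 54675 probe sets of 6 arrays. The submitters' processing notes name MAS5, with no scaling target in the sources used here. The intensities lack the quantile normalization, mean and floor that the study's methods describe, so the mean of 150 and the floor of 30 were applied here. Probe sets were named by the platform annotation (41097 with 1 symbol, 1801 with several, 11777 unnamed), 6 control probe sets were left out, and symbols were checked by gene identifier against RefSeq for 41037. Log2 ratios and the selection rule were computed in Python 3.11.15 with numpy 2.4.6 and pandas 2.3.3, and limma 3.58.1 (lmFit and eBayes, R 4.3.3) was fitted with the time as a block over genes whose mean exceeded the floor in 3 or more arrays, calling genes at a Benjamini-Hochberg adjusted p of 0.05. The number of arrays limits the precision, and the 3 times serve as replicates, so p-values measure only the spread between these samples. Members, lists and tests were chosen with earlier results of these data known. Named genes were the 9 members, up to 4 genes per list and time that passed the rule, and the 5 profiles nearest to RGS2. Of 134 list genes, 11 had no probe set with 1 symbol. Alternatives were other floors, quantile normalization, centred ratios, other summaries or choices of probe sets, other thresholds, other vehicle references and, in limma, fits with a variance trend, without the block or the filter, with the brightest probe set and without each time. The steps were tested on simulated data.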

Additional observations from a re-analysis of the deposited data

Results flagged for a closer look

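LPAR2 was higher with HGF at 8 hours (log2 ratio 1.16) and lower at 24 hours (-0.86), both past the selection rule and in opposite directions. With 1 array per condition the difference between the 2 times was not tested. The vehicle arrays also differed for this gene, with a log2 ratio of -0.54 for 8 over 2 hours, 0.57 for 24 over 2 hours and 1.12 for 24 over 8 hours.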

How the results depend on the processing

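The ratios of RGS2 lay within 0.81 to 0.92 (2 hours), 0.53 to 0.80 (8 hours) and 1.74 to 2.14 (24 hours) under 11 alternatives each. RGS2 has a single probe set well above every floor used, so alternatives of floor and of probe set summary or choice could not change its ratios. These ranges come from quantile normalization, centred ratios and the other vehicle references alone. RGS19 also has a single probe set, so part of the ratios counted next could not move. For the 7 genes above the floor 219 alternative ratios were computed over the 3 times, of which 195 moved by less than the spread between vehicle arrays, 24 moved by more and 0 reversed a call. Only RGS2 at 24 hours and RGS19 at 8 hours were calls, so only their ratios could be counted as reversed. A change of sign in any other ratio was not counted as a reversal. RGS4 and RGS16 have no such spread, and 12 of their 54 alternative ratios, with no floor or centred ratios, differed from 0. With no floor, 2 of the 9 genes passed the rule at 2 hours (RGS4 and RGS10, both lower) and 2 at 8 hours (RGS10 and RGS19). At 24 hours 3 passed (RGS2, RGS4 and RGS10), and 4 times a gene passed between vehicle arrays. The share of all genes that passes with no floor was not counted, so these counts have no background. The calls of RGS4 and RGS10 rest on probe sets far under the floor, at most 7.37 for RGS4 and 11.1 for 214000_s_at of RGS10. RGS19 was not counted at 8 hours, which left 0 genes, when probe sets ending in _s_at or _x_at were left out (its only one), with all 3 vehicle arrays averaged or, chosen after seeing the data, the other 2 averaged as reference, and at a 3-fold threshold. After quantile normalization 1 gene passed between vehicle arrays, RGS19 for 24 over 8 hours. With all 3 vehicle arrays averaged, 8 of the list genes passed at 8 hours (2 higher and 6 lower) in place of 19 (8 higher and 11 lower).
In limma, 0 of the RGS genes were called after adjustment under any setting. At an unadjusted p of 0.05 the count in the main setting was 1 of 6 genes tested, RGS2. That fit holds the 24-hour pair on which RGS2 was chosen, and 403 of its 10002 genes had such a p. Without the 2-hour pair the count was 2 of 6, where 337 of 10002 genes had such a p. These were RGS2, again with the 24-hour pair in the fit, and RGS19 (unadjusted p = 0.0313 in limma). The pair left out is the one with the lowest RGS19 ratio (log2 -0.07). Over the settings the adjusted p of RGS19 in limma lay between 0.819 and 1. Without the filter the count was 0 of 9, where 509 of 19775 genes had such a p. Over all genes 0 were called in the main fit and 3 without the block or with the brightest probe set. No paired analysis beyond this block was possible because the labels give 1 array per condition and no replicate numbers. Signals under the floor limit RGS4, RGS12 and RGS16, and single probe sets limit RGS2, RGS17 and RGS19. The gene ratios of RGS3, RGS10 and RGS14 also hold probe sets at the floor in all arrays, which enter as 0.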
